A study of Bos taurus with 4 samples.

Results

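The genes described here are *ID1*, *ID2* and *ID3*, chosen by name as every microarray probe that the platform annotation assigns to them. This gave 6 probes for 3 genes, out of 43653 probes and 12545 named genes on the array: 2 probes for *ID1*, 3 for *ID2* and 1 for *ID3*. All were measured in bovine inner cell mass (ICM), which forms epiblast and hypoblast, whereas the outer layer of a blastocyst is trophectoderm.

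Cattle embryos were produced in vitro, moved to fresh medium on day 5 and collected as blastocysts on day 9. ICM was then cut free from trophectoderm by hand with tungsten needles. The paper reports that some trophectoderm cells stayed on the isolated pieces, seen by CDX2 staining of a selection of them. ICM here therefore means tissue that includes trophectoderm cells. MAPK-inhibited ICM came from embryos cultured with PD0325901, a small molecule that blocks the kinase MEK upstream of ERK, and control ICM came from embryos given the solvent DMSO. Each group held 2 arrays, replicates a and b, and every ICM sample shared its array with RNA of the same pool of whole blastocysts. The pool contains ICM as well as trophectoderm, so a ratio to it is not a ratio of ICM to trophectoderm. In replicate a the ICM carried the dye Cy3 and in replicate b Cy5. The labels give replicates by letter only, and the study lists a separate pool of embryos for each ICM sample.

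ID proteins are helix-loop-helix proteins without a DNA-binding region. They pair with basic helix-loop-helix transcription factors and keep them off DNA, and in many cell types they hold back differentiation. Their genes are among the best known direct targets of bone morphogenetic protein (BMP) signalling: BMP ligands bind paired receptors, the receptors phosphorylate SMAD1, SMAD5 and SMAD9, and these enter the nucleus with SMAD4. In mouse embryonic stem cells, Id proteins induced by BMP help to keep cells undifferentiated.

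In control ICM all 6 probes lay above the blastocyst pool on both arrays, beside 29.7% of all genes by their brightest probe. *ID1* stood highest, at 2.04 times the pool, followed by *ID3* at 1.54 times and *ID2* at 1.14 times, each by its brightest probe. After MAPK inhibition *ID1* was at 2.09 times the pool, *ID3* at 1.33 times and *ID2* at 0.864 times, so 2 of the 3 genes remained above it on both arrays, beside 32% of all genes. No probe passed the adjusted threshold for a difference between the groups, and 5 of 6 had the lower mean in MAPK-inhibited ICM.

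*ID1* was represented by its brighter probe, BTAA009859. On the arrays as deposited, its mean spot intensity in ICM was 1332 and 989 in control a and b and 966 and 1008 in MAPK-inhibited a and b. The pool on the same arrays gave 503, 543, 656 and 447, so ICM was the brighter channel on every array. After normalization the log2 ratio of ICM over pool was 1.14 and 0.91 in control ICM and 1.00 and 1.12 in MAPK-inhibited ICM. Both MAPK-inhibited values lay between the control values, and the group means were 1.03 ± 0.16 and 1.06 ± 0.083 (SD, n = 2 arrays each). Of the 12545 genes, 14 had a higher mean ratio than *ID1* in control ICM, and 99 did after MAPK inhibition, although the *ID1* mean itself was not lower. By the other *ID1* probe these counts were 508 and 4069.

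The difference for *ID1*, MAPK-inhibited minus control, was 0.04 on the log2 scale with a standard error of 0.11 (limma, adjusted p = 0.952). Its 95% interval ran from -0.28 to 0.35, that is from 82.3% to 128% of the control level. Within replicate a the difference was -0.14 and within replicate b 0.21. The sign of this small difference therefore depended on the replicate, and it turned in some processing alternatives.

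The other *ID1* probe, BTAA025990, was dim. Its ICM intensity was 93.8 and 83.4 in control a and b and 37.97 and 62.8 in MAPK-inhibited a and b, beside 59.7, 61.8, 40.6 and 52.2 in the pool. On MAPK-inhibited a the ICM signal was under the background cutoff of 48.0, the 95th percentile of the negative control spots, so the probe was above background in ICM on 3 of 4 arrays. The pool signal of 40.6 on that array was also under its cutoff, 44.9. The log2 ratios of this probe were 0.29 and 0.35 in control ICM and 0.00 and 0.14 in MAPK-inhibited ICM, and these groups did not overlap. The difference was -0.25 (SE 0.073, limma, adjusted p = 0.434). The *ID1* probes thus disagreed: they lay between 0.56 and 1.00 log2 units apart on the same array, and only the dim one was lower after inhibition on both replicates.

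**Figure D1:**
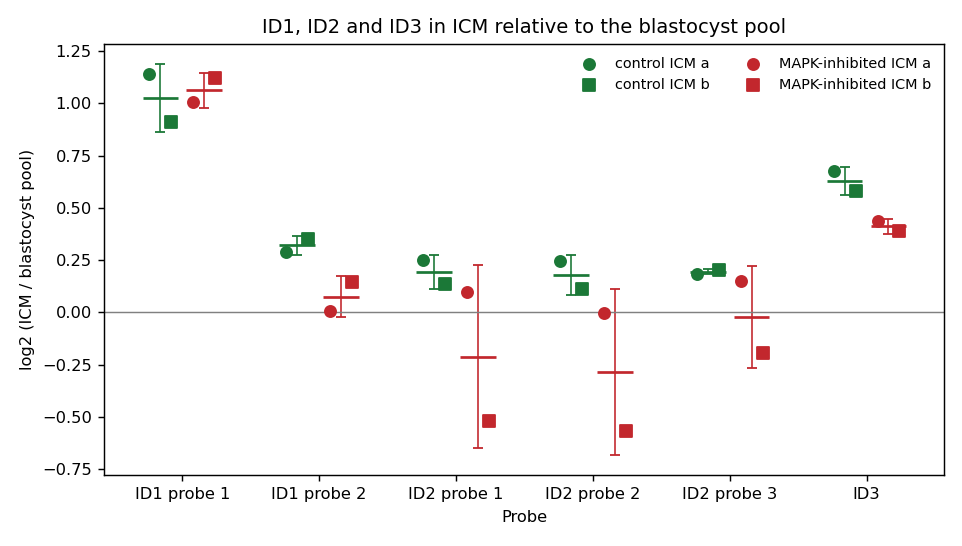
Log2 ratio of ICM over blastocyst pool (vertical axis) for the 6 probes (horizontal axis), with control ICM in green, MAPK-inhibited ICM in red, replicate a as circles and replicate b as squares. Horizontal lines are means and bars are SD over 2 arrays. Both *ID1* groups of the brighter probe sit near 1 and overlap, whereas the red points lie below the green ones for the other 5 probes.

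*ID3* has a single probe, BTAA001327. Its ICM intensity was 279.65 and 272 in control a and b and 181 and 130.5 in MAPK-inhibited a and b. The pool gave 139, 180.02, 158 and 94.98, so ICM was again the brighter channel on all 4 arrays. The log2 ratio was 0.68 and 0.58 in control ICM and 0.44 and 0.39 in MAPK-inhibited ICM. Both inhibited arrays lay below both control arrays, with means of 0.63 ± 0.069 and 0.41 ± 0.036 (SD, n = 2 arrays each). In control ICM 119 genes had a higher mean ratio than *ID3*, and in MAPK-inhibited ICM 771 did.

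The *ID3* difference was -0.22 on the log2 scale (SE 0.072, limma, adjusted p = 0.471). The fitted level was 86.1% of control, with a 95% interval of 75.0% to 99.0%. The difference was nearly the same size in both dye orientations, -0.24 in replicate a and -0.19 in replicate b. The *ID3* spot on MAPK-inhibited b had a wide spread of pixels, however. Its SD was 55.4 in ICM beside the mean of 130.5, and 51.5 in the pool beside 94.98. How far *ID3* stood above the pool depended on the background correction: with the local background mean in place of its median, the ratio was 0.34 for control and 0.0027 for MAPK-inhibited ICM, and the difference stayed negative.

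*ID2* has 3 probes, and the brightest, BTAA017155, represents the gene. Its ICM intensity was 2985 and 2475 in control a and b and 872 and 1121 in MAPK-inhibited a and b. The pool gave 2245, 2364, 1185 and 1581. In the deposited signals ICM was thus the brighter channel on both control arrays and the dimmer one on both MAPK-inhibited arrays. The spot on MAPK-inhibited a had a wide spread of pixels, with an SD of 861 in ICM beside the mean of 872, just inside the limit for an even spot (SD below the mean).

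After normalization the log2 ratio of that probe was 0.25 and 0.14 in control ICM and 0.10 and -0.52 in MAPK-inhibited ICM. The control values lay close together and the inhibited values far apart, giving means of 0.19 ± 0.081 and -0.21 ± 0.44 (SD, n = 2 arrays each). The difference was -0.40 (SE 0.146, limma, adjusted p = 0.499), or 75.5% of control with a 95% interval of 56.9% to 100.3%. It was -0.15 within replicate a and -0.66 within replicate b. Without MAPK-inhibited replicate b or without control replicate b only the difference of replicate a, -0.15, remained, and without MAPK-inhibited replicate b the group's ratio to the pool changed sign to 0.10.

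The other *ID2* probes gave the same order of groups. Probe BTAA029628 had ratios of 0.25 and 0.11 in control ICM and -0.00 and -0.57 in MAPK-inhibited ICM, and a difference of -0.46 (SE 0.13, limma, adjusted p = 0.412). Probe BTAA041772 had 0.18 and 0.20 against 0.15 and -0.19, and a difference of -0.22 (SE 0.12, limma, adjusted p = 0.636). The 3 probes lay within 0.066 to 0.37 log2 units of each other on any array, closer together than the *ID1* probes. They share their RNA and their target, so they are not independent measurements of the treatment. For all 3 the ratio on MAPK-inhibited b was the lowest of the 4 arrays.

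**Figure D2:**
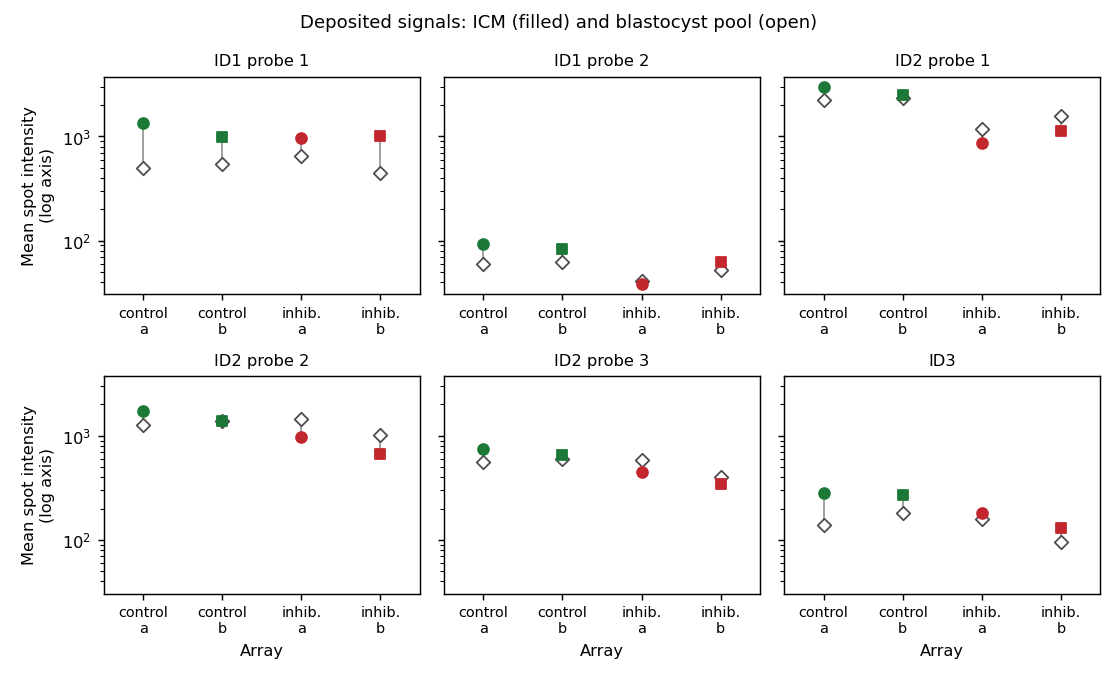
Mean spot intensity as deposited (vertical log axis) for each probe on each of the 4 arrays (horizontal axis), with ICM as filled symbols (green control, red MAPK-inhibited) and the blastocyst pool as open diamonds. For *ID1* probe 1 and *ID3* the ICM symbol lies above the pool on every array, and for the *ID2* probes it lies below the pool on both MAPK-inhibited arrays.

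The channels were not equally bright on every array. Before normalization the median log2 ratio over all probes was 0.11 and -0.03 on control a and b and -0.37 and -0.00 on MAPK-inhibited a and b. The log2 ratio of the brightest *ID2* probe on MAPK-inhibited a was -0.44 in the deposited signals and 0.10 after background correction and loess together. MAPK-inhibited a also had the fewest probes above background, 83.7% against 97.5% to 99.8% on the other arrays, and the most uneven spots, 7.98% against 0.0412% to 0.779%.

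Across the 6 probes, 5 had both MAPK-inhibited values below both control values, a pattern found in 18.3% of all 43653 probes, and 0 had the opposite pattern, beside 17.2%. By brightest probe these were *ID2* and *ID3*, beside 17.5% of genes. No probe reached a 2-fold difference, which 0.332% of all probes did. Of the 6, 3 were lower with an unadjusted p under 0.05 (limma), beside 4.63% of all probes, and 0 were higher, beside 5.5%. The 3 were 1 probe of each gene, for *ID2* BTAA029628 and for *ID1* only the dim probe. The brighter *ID1* probe was at 0.04. After Benjamini-Hochberg adjustment limma called 0 of the 6 and 0% of all probes, although 4425 probes had an unadjusted p under 0.05. The smallest adjusted p on the array was 0.263. The *ID2* difference was lower than that of all but 263 genes, and the *ID3* difference lower than that of all but 1005, whereas *ID1* lay at percentile 58.7 of the differences of all genes. In these dissected pieces of tissue, fewer cells expressing a gene and less RNA of it per cell cannot be told apart.

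**Figure D3:**
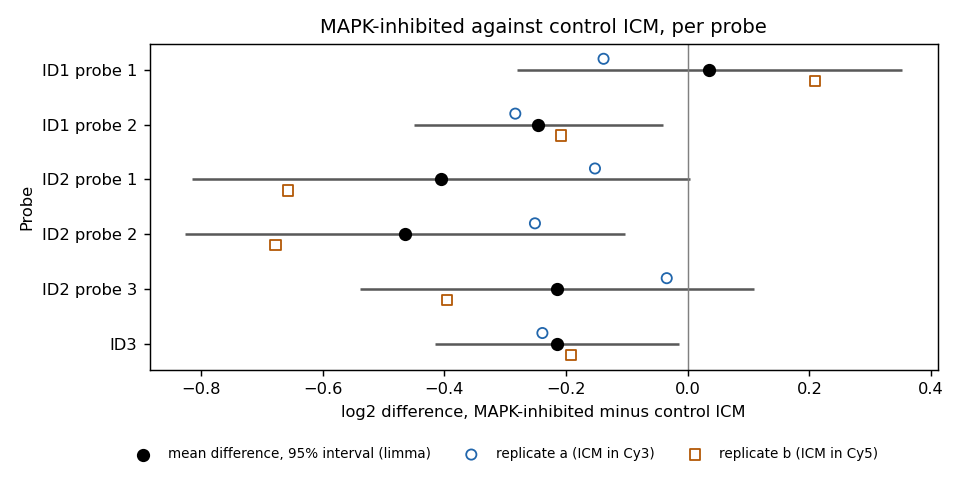
Log2 difference, MAPK-inhibited minus control ICM (horizontal axis), for each probe (vertical axis). Black points and lines are the limma estimate with its 95% interval, and open symbols are the differences within replicate a (circles) and replicate b (squares). Only *ID1* probe 1 has replicates on both sides of 0, and the *ID2* probes have a larger difference in replicate b than in replicate a.

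**Figure D4:**
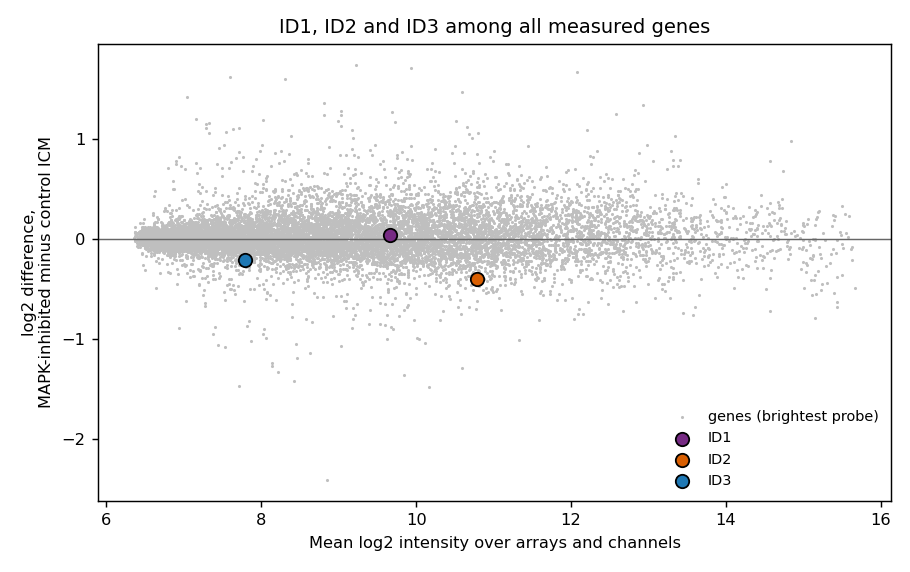
Log2 difference, MAPK-inhibited minus control ICM (vertical axis), against mean log2 intensity (horizontal axis) for all 12545 genes by their brightest probe (grey), with *ID1*, *ID2* and *ID3* in colour. *ID1* lies near 0, *ID3* at -0.22 and *ID2* at -0.40, with 263 genes below it.

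Whether the genes differed from each other in their response was compared in 3 pairs, each as the log2 difference between the genes' ratios on the same array. *ID1* exceeded *ID2* by 0.83 in control ICM and by 1.27 in MAPK-inhibited ICM, a change of 0.44 (two-sided exact permutation p = 0.333, adjusted p = 0.5 over the 3 pairs), which was 0.014 within replicate a and 0.87 within replicate b. *ID1* exceeded *ID3* by 0.40 and 0.65, a change of 0.25 (exact p = 0.333, adjusted p = 0.5), with 0.10 and 0.40 within replicates a and b. *ID2* was below *ID3* by values of -0.43 and -0.62, a change of -0.19 (exact p = 1, adjusted p = 1), and the sign turned between the replicates, at 0.086 in a and -0.47 in b. With 2 arrays a group, 0.333 is the smallest p this unpaired test can give, so it could not pass the threshold and says nothing on whether the responses differed. On each of the 4 arrays the brightest probe of *ID1* lay above *ID3*, and *ID3* above the brightest probe of *ID2*. Neighbours in this order did not overlap in either group. The dim *ID1* probe, however, lay below *ID3* on all 4 arrays.

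The genes whose 4 ratios lay nearest to each *ID* gene, by Euclidean distance among 11493 genes above background on all arrays, were as follows. For *ID1* they were *MYH1*, a muscle myosin heavy chain (distance 0.139), *FABP3*, a fatty acid binding protein (0.183), and *GNG11*, a G protein subunit (0.297). For *ID3* they were *NME7*, of the nucleoside diphosphate kinase family (0.112), *MYADM*, a membrane protein (0.128), and *PFKM*, the muscle phosphofructokinase (0.142). For *ID2* they were *CBY2* (0.114), *UTP3* (0.119) and *C1QTNF9* (0.123), each with its lowest value on MAPK-inhibited b, at -0.54, -0.49 and -0.48.

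Genes acting upstream of *ID1*, *ID2* and *ID3* had differences of both signs. Of 16 listed BMP ligands 8 were measured, 4 lower and 4 higher after inhibition, with a median log2 difference of 0.00 beside 0.01 over all genes. The lowest was *BMP2*, a ligand able to induce *ID* genes, with ratios to the pool of 0.39 and 0.44 in control ICM and 0.11 and -0.03 in MAPK-inhibited ICM (difference -0.37, limma, adjusted p = 0.365). *BMP2* was dim, at a mean log2 intensity of 7.11 beside 6.90 for the dim *ID1* probe, though above background in ICM on all 4 arrays. It was the only ligand with an unadjusted p under 0.05 in either direction, while 5.45% of genes were lower and 8.77% higher by that rule. *BMP7* had a difference of 0.17 (0.08 and 0.25 within replicates a and b), and *BMP4* one of 0.03 whose sign differed between them (-0.09 and 0.14). Of the receptors and co-receptors 7 of 10 were measured, 1 lower and 6 higher, with a median of 0.08 and none with an unadjusted p under 0.05. The farthest from 0 was *RGMA*, a BMP co-receptor, at 0.17, which came from replicate b (0.35) and not replicate a (-0.00).

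Among the SMAD proteins and their regulators 9 of 11 were measured, with 3 lower, 6 higher and a median of 0.09. *SMAD1*, which carries the BMP signal, had ratios of -0.38 and -0.32 in control ICM and -0.88 and -1.32 in MAPK-inhibited ICM, a difference of -0.75 (limma, adjusted p = 0.336) that was -0.50 within replicate a and -1.001 within replicate b. *SMAD4*, the shared partner, had the opposite sign, with 0.18 and -0.05 in control ICM, 0.61 and 0.31 after inhibition and a difference of 0.40 (limma, adjusted p = 0.329). In neither gene did the groups overlap, a pattern found in 17.5% of genes in the lower direction and in 17.2% of probes in the higher one. *SKIL*, a repressor of SMAD activity, was at 0.18.

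The list of BMP antagonists held the widest span. Of its 14 genes 13 were measured, 6 lower and 7 higher, with a median of 0.05, and an unadjusted p under 0.05 was reached by 3 lower and 2 higher genes. *FST*, which encodes follistatin, a secreted inhibitor of activin that also binds some BMPs, had ratios of 1.06 and 1.01 in control ICM and -0.20 and -0.28 in MAPK-inhibited ICM. Its difference of -1.27 was the farthest from 0 in any list of BMP genes (limma, adjusted p = 0.270). *NOG*, encoding noggin, which sequesters BMP2 and BMP4, had a difference of -0.32 (-0.19 and -0.44 within replicates a and b), and *BAMBI*, a decoy receptor that is itself induced by BMP, one of 0.48 (limma, adjusted p = 0.336). *BMPER*, which binds BMPs outside the cell, was at 0.29. *BMPER* and *NOG* were dim, at mean log2 intensities of 6.76 and 7.08 beside 6.90 for the dim *ID1* probe. Both were above background in ICM on all 4 arrays.

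Other target genes of BMP also lay on both sides of 0. Of 16 listed 15 were measured, of which 5 were lower and 10 higher, with a median of 0.03, and *BAMBI*, *SMAD6* and *SMAD7* are counted in 2 lists. *MSX1*, a homeobox gene, had a difference of 0.86 (limma, adjusted p = 0.415), but its values on MAPK-inhibited a and b were far apart, 1.33 and 0.32, and 1 of its spots was uneven. *HES1*, a helix-loop-helix repressor that also responds to Notch, had 0.29 and 0.17 in control ICM and 1.02 and 0.71 in MAPK-inhibited ICM, a difference of 0.63 (limma, adjusted p = 0.287). *GATA2*, a trophectoderm transcription factor, was at -0.52 with 1 uneven spot, or -0.87 within replicate a and -0.18 within replicate b. *ID4*, the remaining *ID* gene, was not analysed here.

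Of the helix-loop-helix and other factors that ID proteins are known to bind 9 of 14 were measured, 2 lower and 7 higher, with a median of 0.08. *TCF3*, which encodes the E proteins E12 and E47, had a difference of 0.19 with 1 uneven spot, and its sign turned between replicate a (0.45) and replicate b (-0.06). *ASCL2*, a trophoblast factor in mouse, was at 0.49 (limma, adjusted p = 0.489), with 0.18 in replicate a and 0.79 in replicate b, and *ETS1* was at 0.46 (limma, adjusted p = 0.320). No gene of any of these lists passed the adjusted threshold.

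**Figure D5:**
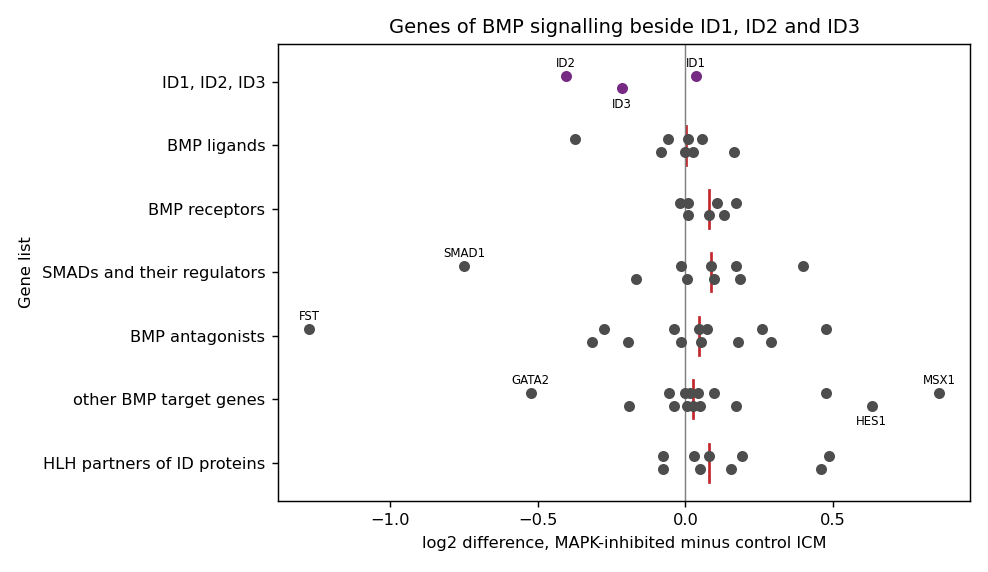
Log2 difference, MAPK-inhibited minus control ICM (horizontal axis), of each measured gene (points) in 6 lists of BMP signalling and ID partners and of *ID1*, *ID2* and *ID3* (rows), with the list median as a red line and names for the *ID* genes and for genes beyond 0.5. List medians lie between 0.00 and 0.09, and *FST* (-1.27) and *MSX1* (0.86) mark the extremes.

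The labels of treatment and tissue were checked with genes of known response. *NANOG*, the epiblast factor, had ratios of 1.39 and 1.32 in control ICM and 2.72 and 2.66 in MAPK-inhibited ICM, and *SPRY2*, a feedback inhibitor switched on by ERK, had a difference of -0.68 (-0.43 and -0.92 within replicates a and b), whereas *DUSP6*, another such gene, was at -0.01. Of 10 listed epiblast markers 5 were measured and all were higher (median 0.08). Of 10 hypoblast markers 6 were measured, 5 lower and 1 higher (median -0.10). Of all 12545 genes 6511 were higher and 6034 lower. For the epiblast genes *SALL4* and *PRDM14* and the hypoblast gene *GATA4* the sign differed between the replicates. Of 13 trophectoderm markers 8 were measured, 5 lower and 3 higher, with a median of -0.12. In control ICM the mean ratio lay above the pool for 4 of these 8, for 3 of the 6 hypoblast and for 4 of the 5 epiblast markers. Among all genes this share was 53.3%. The summed ICM signal of the trophectoderm markers over their summed pool signal was -1.03 and 0.71 on the log2 scale in control a and b. In MAPK-inhibited a and b it was -0.73 and 0.46. This split went with the replicate letter, and so also with the dye, and was carried by the brightest gene, *TFAP2C*. Without it, a choice made after seeing the data, the sums were -0.57 and -0.45 in control a and b and -0.43 and -0.58 in MAPK-inhibited a and b, and the groups overlapped. Of 7 markers of cumulus and granulosa cells 4 were measured and these 4 were higher (median 0.23). *HAS2*, *PTX3* and *TNFAIP6* were not analysed here, and the paper lists *HAS2* as more than 2-fold lower after inhibition. For 3 of the 4 measured the unadjusted p was under 0.05 (limma), beside 8.77% of genes higher by that rule. The sums of all 4 were -0.53 and 0.60 in control a and b and -0.19 and 0.80 in MAPK-inhibited a and b. Without the brightest, *STAR*, these were -0.24 and 0.21 and then 0.093 and 0.37. The defining trophectoderm genes *CDX2*, *KRT8* and *KRT18* were not analysed here, and the part of any of these cell types in the *ID* values was not tested.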

How the data were processed

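Total RNA of ICM and of the blastocyst pool was amplified, labelled with Cy3 or Cy5 and hybridised to 4 Agilent bovine arrays of 60-mer probes. The authors extracted spot intensity values (mean, median and SD of the pixels of spot and local background) with Imagene, and the genome build is not given in the sources used here. The deposited value table holds the authors' log2 ratios after loess on mean intensities and a correction of gene-specific dye bias. Regression on the scanner values showed that these are ICM over pool with a slope between 1.03 and 1.05 in size, while their centring stays unknown. The mean intensities were corrected here with normexp against the local background median (offset 50) and normalized by loess within each array, with 1567 control spots at weight 0, in limma 3.58.1 (R 4.3.3). The background median was preferred to the mean, since the highest local value was 28589 for the mean and 9057 for the median.

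The model held group and dye orientation. Dye orientation goes with the replicate letter, so this term serves as the replicate block as well, and same-letter deviations correlated at 0.454. limma left 1 residual degree of freedom and a total of 3.90 after moderation. Tests were two-sided, with Benjamini-Hochberg adjustment over 43653 probes and a threshold of 0.05. The pool, a common reference, was compared without a test. A gene was represented by its brightest probe, where the methods used the probe nearest the 3′ end, and the methods' permutation test of array residuals was not run. Gene names came from the platform annotation (27952 probes with 1 gene, 15701 unnamed), of which 1831 symbols were updated through RefSeq. Genes named beside *ID1*, *ID2* and *ID3* are the 3 nearest by ratio, check genes, and up to 4 of a list by size of difference, and *BMP4* was added after its values were seen. The members and lists were chosen with earlier results of these data known. Scripts were tested on simulated data. Array number limits the precision. Alternatives were other background corrections, the authors' values, median centring, filters on dim or uneven spots, the pixel median, all probes of a gene, no dye term, and leaving out arrays.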

Additional observations from a re-analysis of the deposited data

How the results depend on the processing

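No setting called any probe of *ID1*, *ID2* or *ID3*, and *ID2* and *ID3* kept a negative difference in all 17 alternatives. For *ID2* the lowest adjusted p over the alternatives was 0.172 and for *ID3* 0.328 (limma). With no replicate block (no dye term) the values were the same, 0.04, -0.40 and -0.22 for *ID1*, *ID2* and *ID3*, with adjusted p = 0.984, 0.835 and 0.653, and 0 probes were called. Leaving out arrays moved *ID2* between -0.72 and -0.095, *ID3* between -0.26 and -0.17 and *ID1* between -0.14 and 0.21. The *ID1* difference also turned to -0.11 with the mean of its probes, -0.14 with median centring and -0.0059 with the background mean.

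The count of called probes was 0, but 43 (15 genes) without background correction and 319 (120 genes) with the authors' values, and 0 to 101 probes (0 to 38 genes) when an array was left out with no dye term, the nonzero counts coming without MAPK-inhibited a (42 probes) or MAPK-inhibited b (101). *NANOG* was called without background correction (1.37, adjusted p = 0.0264) and with the authors' values (1.37, adjusted p = 0.00271). Without single arrays *SPRY2* lay between -0.92 and -0.43. The cause of these changes was not tested.

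The ratio of *ID1* to the pool was 0.67 for control and 0.57 for MAPK-inhibited ICM with the mean of its probes, and in MAPK-inhibited ICM 0.92 with median centring and 0.86 with the background mean. The *ID3* ratio in control ICM was 0.76 without background correction, 0.34 with the background mean and 0.76 with the authors' values. In MAPK-inhibited ICM it was 0.57, 0.0027 and 0.54 in the same order and 0.34 with median centring. Without MAPK-inhibited replicate b the *ID2* ratio in that group was 0.10, and that of its dimmest probe 0.15 in place of -0.02 (range -0.19 to 0.15 without single arrays). Leaving out arrays gave ranges of 0.91 to 1.14 for *ID1*, 0.14 to 0.25 for *ID2* and 0.58 to 0.68 for *ID3* in control ICM, and of 1.00 to 1.12, -0.52 to 0.10 and 0.39 to 0.44 in MAPK-inhibited ICM.

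Small values turned sign. *DUSP6* was at 0.028 with the pixel median (added after seeing the data) and between -0.078 and 0.059 without single arrays, and as the middle gene of the checks it carried their median with it. The median of BMP ligands was -0.034 with the pixel median, -0.0027 with only probes above background and -0.062 to 0.031 without single arrays. That of BMP antagonists was -0.000067 with the background mean and -0.025 to 0.032 without single arrays. That of other BMP targets was -0.016 with median centring and -0.0066 with the background mean. That of epiblast markers was -0.037 with median centring, and that of trophectoderm markers between -0.17 and 0.012 without single arrays. The median over all probes stayed within 0.01 of 0 in every setting. Signal over background limits the dim *ID1* probe: its control ratio of 0.32 was 0.50 without background correction and 0.099 with the background mean.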
